A study of Mus musculus with 6 samples.

Results

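The D-type cyclins and the MYC family were read on Illumina mouse BeadChip arrays by 8 probes for 4 of 6 genes, namely 3 probes for Ccnd1, 2 for Ccnd2, 2 for Ccnd3 and 1 for Mycl. The members were every probe that the platform annotation assigns to Ccnd1, Ccnd2, Ccnd3, Myc, Mycn or Mycl, out of 10057 probes with 1 gene symbol that gave 6823 tested genes. Myc and Mycn have no named probe here and were not analysed. Probes are named here only where the authors' value table lists them, and that table holds exactly the probes detected on at least 1 of the 6 arrays. The members were thus in part selected on their detection p-values, and the gene set was picked with earlier results of these data known, so the adjusted p-values below describe the fit and give no independent support to the choice.

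The 3 groups were male cells of strain 129 x MF1, with 2 arrays each, and all of them carried a Nanog transgene, for which no promoter is named in the labels. Nanog PGCLCs are primordial germ cell-like cells, a culture model of the founders of the germ line, made from epiblast-like cells in GK15 medium by switching on Nanog with doxycycline at 0.7 µg/ml and collected on day 4. Cytokine PGCLCs were made in the same base medium and also collected on day 4, with 500 ng/ml of the bone morphogenetic proteins BMP4 and BMP8A, 100 ng/ml of stem cell factor (SCF), 50 ng/ml of epidermal growth factor (EGF) and 1000 U/ml of LIF. The mESCs, embryonic stem cells, were kept in N2B27 medium with 1000 U/ml of LIF, 3 µM of CHIR99021, which inhibits GSK3, and 1 µM of PD0325901, which inhibits MEK. No sort of the PGCLCs is described in the labels, and nothing there ties the replicates to separate cultures, so the p-values rest on an array-to-array spread that may be no more than technical.

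D-type cyclins bind and activate the kinases CDK4 and CDK6, which phosphorylate the retinoblastoma protein and release E2F transcription factors, and this opens the way from G1 into S phase. They are the cyclins through which growth factor signals usually reach the cell cycle, and mouse embryonic stem cells are known for a short G1 phase. MYC proteins are helix-loop-helix transcription factors that bind DNA with their partner MAX and drive ribosome production, nucleotide synthesis and growth, and Mycl encodes the L-MYC member of that family. Ccnd1 is a textbook target of WNT and ERK signalling. GSK3, the kinase that CHIR99021 blocks, marks cyclin D1 and c-MYC protein for degradation, a step that arrays of RNA do not measure.

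Promoter sequences were held for 2 of the 4 members, Mycl and Ccnd3. They are shown because Mycl RNA differed in opposite directions in the 2 kinds of PGCLC, and because Ccnd3 has 2 RefSeq starts and 2 probes annotated to different transcripts. Each runs from 250 bases before to 50 bases after a RefSeq start (RefSeq, GRCm38.p6, plus strand). Capitals mark matches on either strand to 6 short words. They are TATAAA for the classical core promoter box, GGGCGG for the Sp1 box, CACGTG for the E-box bound by MYC and MAX, CTTTGA for the factors of WNT signalling, GGCGCC for a SMAD element and TTCNNNGAA for STAT factors. The Mycl window is chr4:122995681-122995980, and the Ccnd3 windows are chr17:47504801-47505100 and chr17:47593217-47593516.
Mycl: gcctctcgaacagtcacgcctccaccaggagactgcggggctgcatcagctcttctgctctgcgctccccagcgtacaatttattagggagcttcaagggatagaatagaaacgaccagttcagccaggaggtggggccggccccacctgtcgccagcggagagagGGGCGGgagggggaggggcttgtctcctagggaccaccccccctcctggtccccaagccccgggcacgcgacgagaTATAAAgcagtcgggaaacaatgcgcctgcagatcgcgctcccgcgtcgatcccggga
Ccnd3, upstream start: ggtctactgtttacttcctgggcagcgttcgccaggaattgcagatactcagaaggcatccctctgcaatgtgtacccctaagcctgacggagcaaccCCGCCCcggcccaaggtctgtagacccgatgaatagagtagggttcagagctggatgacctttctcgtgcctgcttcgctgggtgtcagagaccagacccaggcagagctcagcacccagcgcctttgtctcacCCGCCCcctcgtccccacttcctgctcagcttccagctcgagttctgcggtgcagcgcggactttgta
Ccnd3, downstream start: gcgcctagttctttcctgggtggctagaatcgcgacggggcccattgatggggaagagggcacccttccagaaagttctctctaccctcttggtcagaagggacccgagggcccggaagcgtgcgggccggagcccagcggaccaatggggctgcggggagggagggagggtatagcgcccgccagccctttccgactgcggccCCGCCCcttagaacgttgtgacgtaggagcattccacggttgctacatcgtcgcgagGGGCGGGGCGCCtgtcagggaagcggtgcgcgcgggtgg
The Mycl window held 1 TATAAA, at position -8 from the RefSeq start, and whether it acts as a core promoter box was not tested. That word was held by 13.6% of 32851 RefSeq promoter windows of this length. The Mycl window also held 1 Sp1 box, which 35.7% held. Each Ccnd3 window held 2 Sp1 boxes, and the downstream window also held 1 GGCGCC, directly after an Sp1 box and not overlapping it, a word found in 11.9% of windows. None of the 3 windows held the E-box, the WNT word or the STAT word, which 7.15%, 16% and 8.3% of all windows held. These matches are descriptions of letters, and no binding was measured here.

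Between 8788 and 10028 of 45281 probes were detected per array (detection p below 0.01 against the negative control beads), and normalized log2 intensities of the 2 arrays of a group correlated at 0.991 to 0.994 across genes, which are not independent replicates. With 2 arrays a group, precision is limited by their number. Of the 5 early germ cell markers with a probe, 5 were higher in Nanog PGCLCs and 5 in cytokine PGCLCs than in mESCs (Tfap2c, Prdm14, Nanos3, Dppa3 and Dnd1). Of all genes, 28.2% and 29.9% were higher there. Of the 6 naive stem cell markers, 4 were lower in each kind of PGCLC (Klf4, Tfcp2l1, Tbx3 and Nr0b1), and Esrrb and Zfp42 were not called. Klf4 was not detected in Nanog PGCLCs and dropped out when detection on at least 4 arrays was required. Its lower calls were thus in part set by the filter. Of all genes, 25.9% were lower in Nanog PGCLCs and 24.8% in cytokine PGCLCs. The other Tbx3 probe was at -0.04 in cytokine PGCLCs (limma adjusted p over probes = 0.781). The Tbx3 call there was lost with the mean of all probes, with median scaling and without cytokine PGCLC replicate 2. Median scaling also lost the Nr0b1 call in both kinds of PGCLC. In cytokine PGCLCs that call was lost as well with cyclic loess, without mESC replicate 2 and without either cytokine array. The mesoderm, endoderm and fibroblast markers listed for this work had no named probe.

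**Figure D1:**
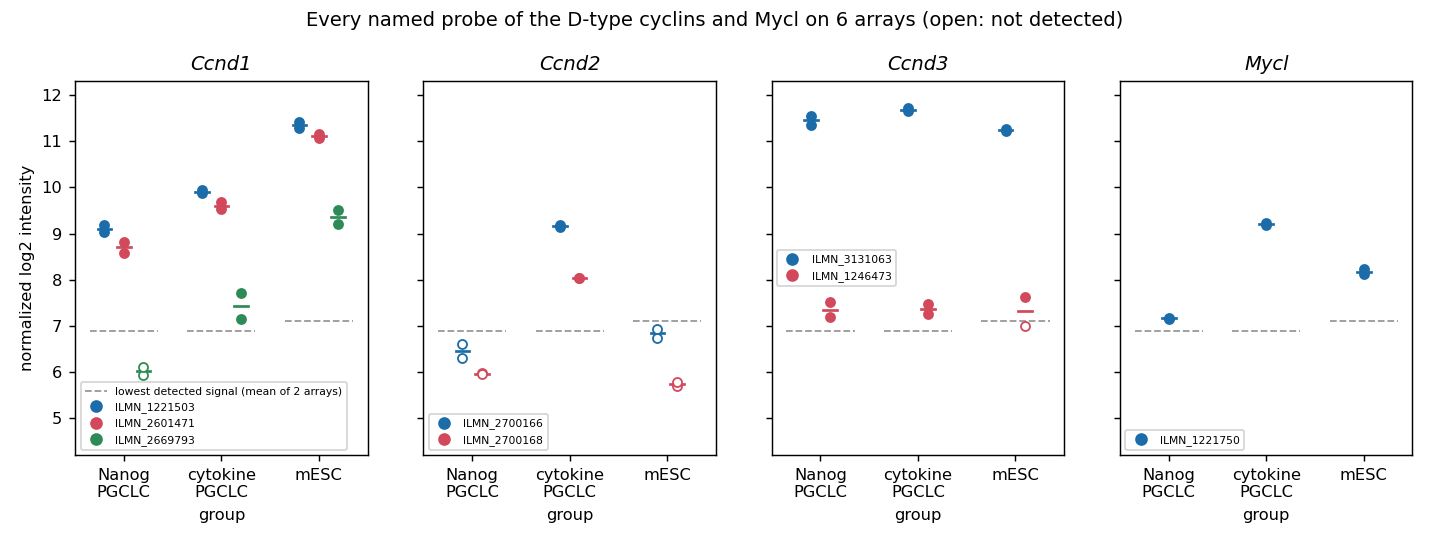
Normalized log2 intensity of each of the 8 named probes (colours) on the 2 arrays of each group, with a short bar at the group mean, open circles where the probe was not detected and a dashed line at the lowest detected signal. Ccnd1 was highest in mESCs on its 3 probes, Ccnd2 was detected on the cytokine PGCLC arrays and on no other array, and Mycl was highest in cytokine PGCLCs and lowest in Nanog PGCLCs.

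Ccnd1, which encodes cyclin D1, fell in both kinds of PGCLC and was lowest in Nanog PGCLCs. On its brightest probe (ILMN_1221503) normalized log2 intensity was 9.18 and 9.03 in Nanog PGCLCs, 9.94 and 9.87 in cytokine PGCLCs, and 11.28 and 11.41 in mESCs. The 3 groups did not overlap, and the order was mESCs, then cytokine PGCLCs, then Nanog PGCLCs, with each neighbouring pair called. Against mESCs, Ccnd1 was 4.71-fold lower in Nanog PGCLCs (log2 difference -2.24 ± 0.10, ± SE with n = 2 per group, adjusted p from limma = 1.98e-06) and 2.71-fold lower in cytokine PGCLCs (-1.44 ± 0.10, limma adjusted p = 1.34e-05). Between the PGCLCs it was 1.74-fold lower in those made with Nanog (-0.80 ± 0.10, limma adjusted p = 0.00109). By fitted difference, Ccnd1 ranked 28 from the lowest of 6823 genes in Nanog PGCLCs against mESCs, 100 in cytokine PGCLCs against mESCs and 141 in Nanog against cytokine PGCLCs.

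The other Ccnd1 probes differed in the same direction. Probe ILMN_2601471 read 8.82 and 8.58 in Nanog PGCLCs, 9.67 and 9.53 in cytokine PGCLCs, and 11.14 and 11.06 in mESCs. Its log2 differences from mESCs were -2.40 ± 0.11 in Nanog PGCLCs and -1.50 ± 0.11 in cytokine PGCLCs (limma adjusted p over 10673 probes = 3.86e-06 and 2.89e-05). The dimmest Ccnd1 probe, ILMN_2669793, read 5.93 and 6.11 in Nanog PGCLCs, 7.71 and 7.14 in cytokine PGCLCs, and 9.51 and 9.21 in mESCs, and it was not detected on either Nanog PGCLC array, where the lowest detected signals were 6.90 and 6.88. On that probe Ccnd1 was at least 5.54-fold lower in Nanog PGCLCs than in mESCs (limma adjusted p over probes = 7.47e-06), a bound that sets the mESC mean against the lowest detected signal on the Nanog arrays. It was at least 1.45-fold lower in Nanog than in cytokine PGCLCs, and -1.93 ± 0.19 on the log2 scale in cytokine PGCLCs against mESCs. All 3 probes were called in each comparison, where 51.7%, 52.8% and 20.2% of all 10673 probes were called, and they are annotated to the same transcript, so they share a target.

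Ccnd2, which encodes cyclin D2, was detected in cytokine PGCLCs and on no array of the other groups. On the brighter probe (ILMN_2700166) normalized log2 intensity was 6.30 and 6.62 in Nanog PGCLCs, 9.13 and 9.18 in cytokine PGCLCs, and 6.93 and 6.74 in mESCs. In raw intensity this was 259 and 370 in Nanog PGCLCs, 767 and 772 in cytokine PGCLCs, and 308 and 354 in mESCs. The cytokine arrays stood above all others, and no order can be read between the other groups, since neither detected the gene. Ccnd2 was thus at least 4.15-fold higher in cytokine PGCLCs than in mESCs, and at least 4.82-fold lower in Nanog than in cytokine PGCLCs. The second probe, ILMN_2700168, read 5.98 and 5.96 in Nanog PGCLCs, 8.04 and 8.04 in cytokine PGCLCs, and 5.70 and 5.78 in mESCs. It gave bounds of at least 1.91-fold higher in cytokine PGCLCs than in mESCs and at least 2.22-fold lower in Nanog than in cytokine PGCLCs. Both Ccnd2 probes passed the filter through the cytokine arrays alone and so had to be high there, and these differences are given with no test.

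Blood and endothelium markers were read beside Ccnd2, and 5 of 8 had a probe. The summed normalized intensity of the 5 was 422 to 431 in Nanog PGCLCs, 1878 to 1898 in cytokine PGCLCs and 378 to 411 in mESCs. The embryonic globin genes Hba-x, Hbb-bh1 and Hbb-y were detected in cytokine PGCLCs but not in Nanog PGCLCs or mESCs, so they too passed the filter through the cytokine arrays alone and are given with no test. Pecam1, an adhesion protein gene of endothelium, did not follow Ccnd2, with log2 intensities of 7.08 and 7.26 in Nanog PGCLCs, 7.18 and 7.01 in cytokine PGCLCs, and 5.97 and 5.74, not detected, in mESCs. Kdr, the VEGF receptor of endothelial and blood precursors, was not called in any of the 3 comparisons. The part of such cells in the Ccnd2 values was not tested. In bulk RNA, fewer cells of a type and less RNA per cell cannot be told apart.

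Ccnd3, which encodes cyclin D3, rose in cytokine PGCLCs by less than the other members changed. On the bright probe (ILMN_3131063) normalized log2 intensity was 11.55 and 11.36 in Nanog PGCLCs, 11.72 and 11.65 in cytokine PGCLCs, and 11.26 and 11.22 in mESCs. The groups did not overlap, and the order was cytokine PGCLCs, Nanog PGCLCs and mESCs. Ccnd3 rose 1.36-fold in cytokine PGCLCs against mESCs (log2 difference 0.44 ± 0.10, limma adjusted p = 0.00631). Neither neighbour in that order differed past the threshold. Nanog PGCLCs differed from mESCs by 0.21 ± 0.10 (95% interval -0.02 to 0.44, limma adjusted p = 0.106) and from cytokine PGCLCs by -0.23 ± 0.10 (95% interval -0.46 to -0.00049, limma adjusted p = 0.139). Both of these values were called with no background correction, with the authors' value table and with an intensity trend in the variance.

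The second Ccnd3 probe, ILMN_1246473, is annotated to another transcript and was close to background. It read 7.51 and 7.19 in Nanog PGCLCs, 7.47 and 7.26 in cytokine PGCLCs, and 7.62 and 7.01 in mESCs, and mESC replicate 2 did not detect it. The groups overlapped, and the log2 differences from mESCs were 0.04 ± 0.20 in Nanog PGCLCs and 0.05 ± 0.20 in cytokine PGCLCs (limma adjusted p over probes = 0.888 and 0.844). The 95% interval of the cytokine difference, -0.41 to 0.51, contains the rise seen on the bright Ccnd3 probe. The mean of both probes was not called in cytokine PGCLCs against mESCs (0.25, limma adjusted p = 0.161).

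Mycl, the gene of L-MYC, moved in opposite directions in the 2 kinds of PGCLC. On its 1 probe (ILMN_1221750) normalized log2 intensity was 7.17 and 7.15 in Nanog PGCLCs, 9.18 and 9.23 in cytokine PGCLCs, and 8.12 and 8.22 in mESCs. The groups did not overlap, and each neighbouring pair in the order of cytokine PGCLCs, mESCs and Nanog PGCLCs was called. Mycl was 2.01-fold lower in Nanog PGCLCs than in mESCs (log2 difference -1.01 ± 0.09, limma adjusted p = 4.74e-05) and 2.05-fold higher in cytokine PGCLCs than in mESCs (1.03 ± 0.09, limma adjusted p = 4.35e-05). Between the PGCLCs it was 4.12-fold lower in those made with Nanog (-2.04 ± 0.09, limma adjusted p = 9.69e-06), ranked 16 from the lowest of 6823 genes. Its Nanog PGCLC values lay 0.27 and 0.28 log2 units above the lowest detected signal, and without background correction the difference from mESCs was -0.49, still called. The summed blood markers were also highest in cytokine PGCLCs, as given above. The globin genes in that sum passed the filter through the cytokine arrays alone and so had to be high there. Its other markers, Pecam1 and Kdr, were not called between the PGCLCs. The part of blood cells in the Mycl values was not tested.

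Of the 3 members detected in every group, Ccnd1 and Mycl were called in Nanog PGCLCs against mESCs, where 54.1% of all tested genes were called. In cytokine PGCLCs against mESCs, Ccnd1, Ccnd3 and Mycl were called, where 54.7% of genes were. In Nanog against cytokine PGCLCs, Ccnd1 and Mycl were called, where 22.6% of genes were. Arrays of the 2 groups did not overlap in 78.4%, 78.9% and 63% of genes in these comparisons, so that separation of arrays alone was common. The comparisons share groups and are given side by side. The kinase inhibitors CHIR99021 and PD0325901 belong to the mESC medium alone, so an effect of medium and one of cell type cannot be told apart in either comparison with mESCs. The PGCLC groups also differ in doxycycline, LIF, BMP4, BMP8A, SCF and EGF. Effects of these additions and of induced Nanog cannot be told apart between them.

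**Figure D2:**
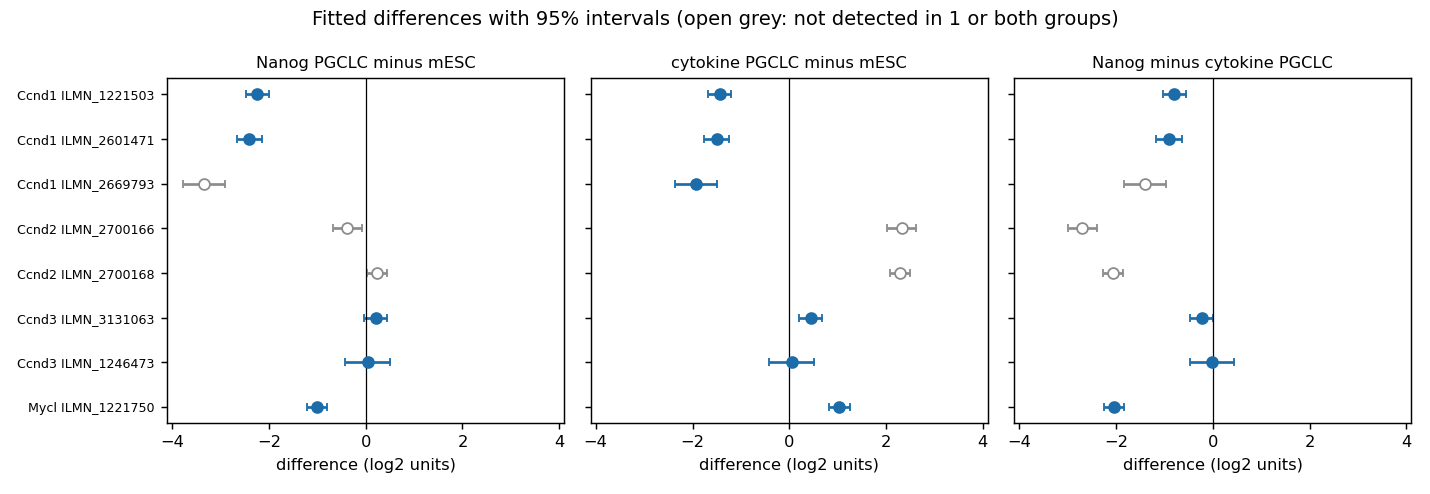
Fitted log2 differences of each probe in the 3 comparisons, with 95% intervals from limma, where open grey points mark probes not detected in 1 or both groups, whose values are no measured folds. On the brightest probes Ccnd1 lies at -2.24, -1.44 and -0.80, and Mycl at -1.01, 1.03 and -2.04, for Nanog PGCLCs minus mESCs, cytokine PGCLCs minus mESCs and Nanog minus cytokine PGCLCs.

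Among the kinases that D-type cyclins activate, Cdk4 had a named probe and Cdk6 had none. Cdk4 was lower in Nanog PGCLCs than in mESCs (log2 difference -0.24 ± 0.09, limma adjusted p = 0.0492), a call lost whichever of the 6 arrays was left out, and stood at 0.02 ± 0.09 in cytokine PGCLCs (limma adjusted p = 0.849). The other Cdk4 probe gave -0.39 and -0.30. Cdk2, the partner of E-type cyclins, was lower in Nanog PGCLCs (-0.39 ± 0.10) and in cytokine PGCLCs (-0.39 ± 0.10) than in mESCs (limma adjusted p = 0.0122 and 0.0118). Neither kinase was called in Nanog PGCLCs without mESC replicate 1 or Nanog PGCLC replicate 1, and Cdk2 was not called in cytokine PGCLCs without mESC replicate 1 or cytokine PGCLC replicate 2.

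Of 7 CDK inhibitor genes 3 were tested, and 2 of them differed between the PGCLCs, where 22.6% of all genes were called. Cdkn1a, which encodes the p53-induced inhibitor p21, fell in Nanog PGCLCs against mESCs (-0.86 ± 0.10, limma adjusted p = 0.000235) and stood at -0.16 ± 0.10 in cytokine PGCLCs (limma adjusted p = 0.215). Its other 2 probes were lower in both, at -1.21 and -1.24 in Nanog PGCLCs and at -0.48 and -0.43 in cytokine PGCLCs (limma adjusted p over probes = 0.0127 and 0.0313 in cytokine PGCLCs). Cdkn1c, the imprinted gene of p57, was lower in Nanog PGCLCs (-0.54 ± 0.10) and higher in cytokine PGCLCs (0.31 ± 0.10) than in mESCs, and the cytokine call was lost without mESC replicate 1 or cytokine PGCLC replicate 2. In Nanog against cytokine PGCLCs, Cdkn1a was at -0.70 ± 0.10 and Cdkn1c at -0.85 ± 0.10, both lower (limma adjusted p = 0.00257 and 0.000679). Cdkn2a, the locus of p16 and ARF, was not called in any of the 3 comparisons.

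The retinoblastoma and E2F genes moved in mixed directions. Rb1, the retinoblastoma gene itself, was 2.29-fold higher in Nanog PGCLCs (1.20 ± 0.18, limma adjusted p = 0.000884) and 2.6-fold higher in cytokine PGCLCs (1.38 ± 0.18, limma adjusted p = 0.000407) than in mESCs, with 0.47 and 1.01 on its other probe. Of 10 genes tested out of 13, 5 were higher and 4 lower in Nanog PGCLCs (median log2 difference 0.27, against -0.00 over all genes), and 5 were higher and 4 lower in cytokine PGCLCs (median 0.21, against 0.01 over all genes). In these comparisons 54.1% and 54.7% of all genes were called. Without mESC replicate 2, or without cytokine PGCLC replicate 1, the lower count in cytokine PGCLCs was 2, and without mESC replicate 1 the higher count in Nanog PGCLCs was 3. E2f1, an activator of S phase genes, stood at 0.55 ± 0.10 in Nanog PGCLCs and 0.66 ± 0.10 in cytokine PGCLCs, and E2f6, a repressor, at -0.56 ± 0.09 in Nanog PGCLCs (limma adjusted p from 0.000795 to 0.00202). In Nanog against cytokine PGCLCs E2f5 was higher (0.36 ± 0.09) and Rbl1, the p107 gene, lower (-0.42 ± 0.12), and neither was called without cytokine PGCLC replicate 2 or without either Nanog PGCLC array.

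Cyclins that act after the D type were lower where called against mESCs. Of all genes, 54.1% and 54.7% were called in Nanog and cytokine PGCLCs against mESCs, and 22.6% between the PGCLCs. Ccne1, an E-type cyclin that follows cyclin D in G1, stood at -0.56 ± 0.14 in Nanog PGCLCs and -1.27 ± 0.14 in cytokine PGCLCs, and Ccne2 at -0.73 ± 0.13 and -0.42 ± 0.13 (limma adjusted p from 0.000144 to 0.0237). The Ccne1 call in Nanog PGCLCs was lost with median scaling and on leaving out either mESC replicate 2 or Nanog PGCLC replicate 1, and the Ccne2 call in cytokine PGCLCs with median scaling, with cyclic loess, without mESC replicate 2 and without either cytokine array. Of 5 other cyclins tested out of 9, 0 were higher and 3 lower in Nanog PGCLCs (median -0.56) and 0 were higher and 2 lower in cytokine PGCLCs (median -0.22), where leaving out either cytokine array or mESC replicate 2 left 1 lower. Between the PGCLCs, Ccne1 was higher in those made with Nanog (0.71 ± 0.14, limma adjusted p = 0.00918) and Ccnf, the gene of cyclin F, was lower (-0.69 ± 0.16, limma adjusted p = 0.0192), with 0 called without cytokine PGCLC replicate 1 or Nanog PGCLC replicate 2.

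Among genes that E2F factors switch on for DNA replication, calls against mESCs were mostly lower. Of 17 tested out of 20, 0 were higher and 4 lower in Nanog PGCLCs than in mESCs (median -0.18), where 54.1% of all genes were called. The lower share of the list, 23.5%, was near the 25.9% of all genes lower in Nanog PGCLCs, and 28.2% of all genes were higher. In cytokine PGCLCs 29.9% of all genes were higher and 24.8% lower. With no background correction 1 was higher and 8 lower in Nanog PGCLCs. In cytokine PGCLCs 1 was higher and 7 lower (median -0.17), where 54.7% of all genes were called, and without cytokine PGCLC replicate 1 the lower count was 2. Tk1, thymidine kinase, stood at -0.50 ± 0.10 in Nanog PGCLCs and -0.73 ± 0.10 in cytokine PGCLCs (limma adjusted p = 0.00276 and 0.000379), and Cdc25a, the phosphatase that activates CDK2, at -0.76 ± 0.12 in Nanog PGCLCs (limma adjusted p = 0.00124). Dut, counted among the lower genes in both, stood at -0.42 in Nanog PGCLCs and -0.68 in cytokine PGCLCs on the probe read. Its other probe gave 0.71, which is higher, and -0.07 (limma adjusted p over probes = 0.00255 and 0.698). Mcm6, a subunit of the replicative helicase, was higher in cytokine PGCLCs (0.47 ± 0.10, limma adjusted p = 0.00403). In Nanog against cytokine PGCLCs, where 22.6% of all genes were called, limma called 0 of the 17, of which 4 had an unadjusted p below 0.05.

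**Figure D3:**
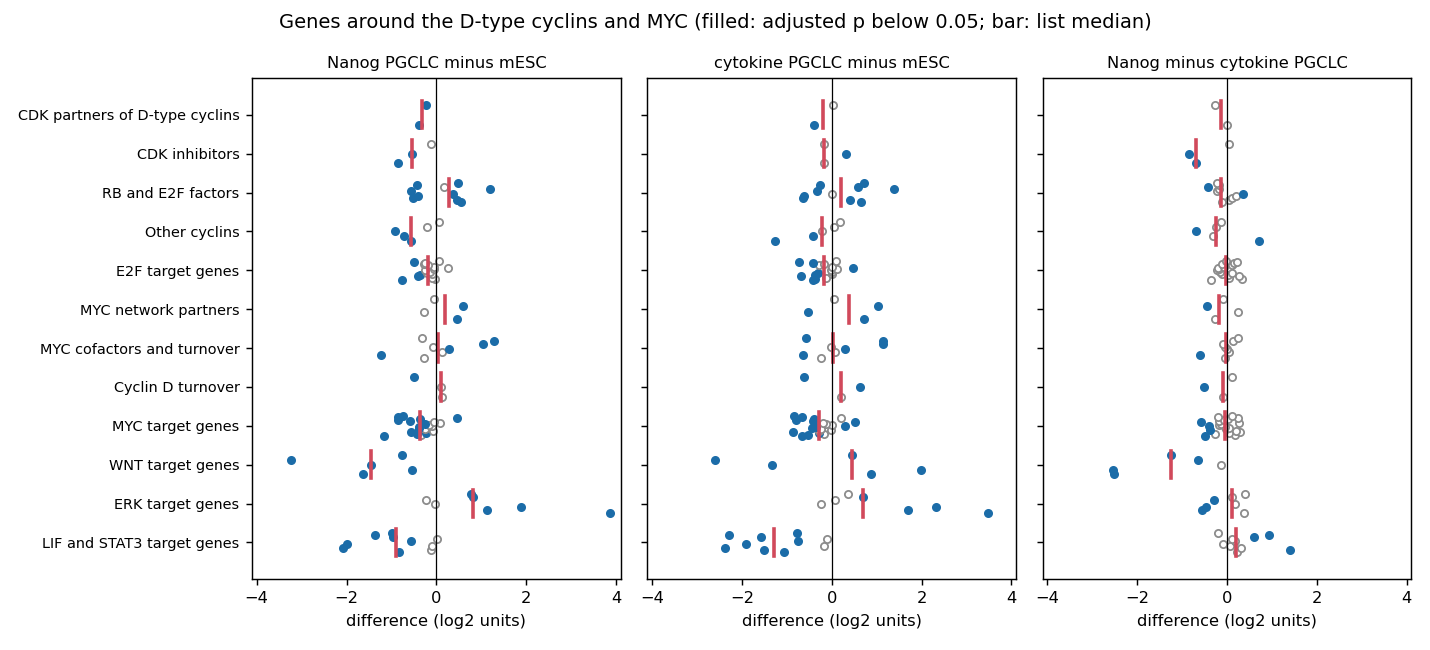
Log2 differences of the genes of each list (points, filled where the limma adjusted p was below 0.05) with the list median (red bar) in the 3 comparisons. Against mESCs the medians of the E2F and MYC target lists lie between -0.37 and -0.17. Genes detected in 1 group alone are plotted too, and their values are no measured folds.

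The MYC network was partly covered, since 4 of its 11 listed partners were tested and Max has no named probe. Mxd4, the gene of a MAX partner that opposes MYC, was not detected in Nanog PGCLCs or mESCs and was at least 1.04-fold higher in cytokine PGCLCs than in mESCs, with no test, since it passed the filter through the cytokine arrays alone. Fbxw7, the ubiquitin ligase subunit that targets MYC and cyclin E for degradation, stood at -1.22 ± 0.14 in Nanog PGCLCs and -0.63 ± 0.14 in cytokine PGCLCs against mESCs, lower in both (limma adjusted p = 0.000154 and 0.00476). Fbxw7 was also lower in Nanog than in cytokine PGCLCs (-0.59 ± 0.14, limma adjusted p = 0.0179), a call lost without either cytokine array or without Nanog PGCLC replicate 1. Usp28, the gene of a deubiquitinase that counters FBXW7, was higher by 1.28 ± 0.11 in Nanog PGCLCs and 1.15 ± 0.11 in cytokine PGCLCs (limma adjusted p = 4.57e-05 and 8.1e-05). Of 8 MYC cofactor and turnover genes tested out of 10, 3 were higher and 1 lower in Nanog PGCLCs and 3 were higher and 2 lower in cytokine PGCLCs (medians 0.03 and 0.03). Trrap, counted as higher in both, was not detected in mESCs and passed the filter through the PGCLC arrays alone. The shares called, 50% and 62.5%, were near the 54.1% and 54.7% of all genes.

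Textbook MYC targets in ribosome production and metabolism were called lower more often than higher against mESCs. Of 21 tested out of 27, 1 was higher and 13 lower in Nanog PGCLCs (median -0.37), where 28.2% of all genes were higher and 25.9% lower. In cytokine PGCLCs 2 were higher and 11 lower (median -0.28), where 29.9% of all genes were higher and 24.8% lower. Between the PGCLCs, 11.4% of all genes were higher and 11.1% lower. Srm, spermidine synthase, stood at -0.74 ± 0.10 in Nanog PGCLCs and -0.85 ± 0.10 in cytokine PGCLCs, and Shmt2, the mitochondrial serine hydroxymethyltransferase, at -0.86 ± 0.11 and -0.67 ± 0.11 (limma adjusted p from 0.000163 to 0.00109). Ppat, an enzyme of purine synthesis, stood at -0.85 ± 0.13 in Nanog PGCLCs and -0.79 ± 0.13 in cytokine PGCLCs (limma adjusted p = 0.000742 and 0.00112). With arrays scaled to the same median the lower count in Nanog PGCLCs was 8, and without cytokine PGCLC replicate 2 the lower count in cytokine PGCLCs was 6. In Nanog against cytokine PGCLCs, 0 were higher and 4 lower (Apex1, Ldha, Nop56 and Pes1), with Pes1, a ribosome assembly factor, at -0.58 ± 0.09, and leaving out either cytokine array or Nanog PGCLC replicate 1 left 1 lower.

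Signals known to act on Ccnd1 and Myc were read through other target genes. Of 13 WNT targets 5 were measured, of which Cdx2 was detected in cytokine PGCLCs alone and Sp5 in mESCs alone, and these 2 passed the filter through those arrays and carry no test. The other 3 (Axin2, Notum and Tnfrsf19) were lower in Nanog PGCLCs than in mESCs, where 25.9% of all genes were lower, and in cytokine PGCLCs 2 were higher and 1 lower, where 29.9% of all genes were higher and 24.8% lower. Axin2, a feedback inhibitor of the pathway, was at least 1.79-fold lower in Nanog PGCLCs (limma adjusted p = 1.03e-05) and higher in cytokine PGCLCs (0.88 ± 0.11, limma adjusted p = 0.000261). Notum, a secreted inhibitor of WNT ligands, was lower in Nanog PGCLCs (-1.46 ± 0.09) and in cytokine PGCLCs (-1.33 ± 0.09), as Ccnd1 was (limma adjusted p = 9.67e-06 and 1.57e-05 for Notum). Of 7 ERK targets tested out of 13, 5 were higher and 0 lower in Nanog PGCLCs and 4 were higher and 0 lower in cytokine PGCLCs. Of all genes, 28.2% and 29.9% were higher in these comparisons. Dusp4 and Egr1, counted as higher in both, were not detected in mESCs. They passed the filter through the PGCLC arrays alone and so had to be high there, and their calls against mESCs carry no test. Dusp6, a phosphatase of ERK, stood at 1.13 ± 0.09 and 1.69 ± 0.09. Of 10 LIF and STAT3 targets measured out of 11, Icam1 and Bcl3 were detected in mESCs alone and carry no test. Of the other 8, 0 were higher and 5 lower in Nanog PGCLCs and 0 were higher and 6 lower in cytokine PGCLCs. Of all genes, 25.9% and 24.8% were lower in these comparisons. Klf4, counted as lower in both, was not detected in Nanog PGCLCs, and its lower calls were in part set by the filter. Stat3, also counted, was not detected in cytokine PGCLCs. Socs3, a feedback inhibitor of STAT3, stood at -0.97 ± 0.09 and -1.57 ± 0.09. Of 7 cyclin D turnover genes 3 were tested. Gsk3b, the gene of a kinase that CHIR99021 inhibits, was lower than in mESCs in both kinds of PGCLC. It stood at -0.51 ± 0.10 with Nanog and -0.61 ± 0.10 with cytokines (limma adjusted p = 0.0026 and 0.000964). Fbxo31 went the other way with cytokines, at 0.62 against mESCs on the probe read (limma adjusted p over probes = 0.00105). Its other probes gave 2.08 and 0.32 there (limma adjusted p over probes = 1.06e-05 and 0.0579). With Nanog the probe read was not called (0.10), and the others gave 1.24 and 0.11. Between the PGCLCs Fbxo31 was lower in those made with Nanog (-0.52), a call lost without cytokine PGCLC replicate 1. Ambra1 was not called.

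The genes whose profile over the 6 arrays lay closest to each member were found by the root mean square difference of log2 values, each gene centred on its own mean, among 6822 other genes. Closest to Ccnd1 were Osr2 at 0.08, Sgk1, a kinase gene, at 0.13 and Cabs1 at 0.17 log2 units. Sgk1 differed from mESCs by -1.95 ± 0.10 in Nanog PGCLCs and -1.41 ± 0.10 in cytokine PGCLCs, against -2.24 and -1.44 for Ccnd1. Closest to Ccnd2 were Cdx2, a homeobox gene of trophectoderm and posterior mesoderm, at 0.14, the embryonic globin gene Hbb-y at 0.15 and Gata2, a blood transcription factor, at 0.24. Osr2 was not detected in either kind of PGCLC, nor Cabs1 in Nanog PGCLCs, and Cdx2 and Hbb-y, like Ccnd2, were not detected in Nanog PGCLCs or mESCs, and in those groups the likeness is one of background signal.

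Closest to Mycl were the WNT receptor genes Fzd10 at 0.13 and Ror2 at 0.18, and Lhpp at 0.20. Ror2 read 6.45 and 6.73 in Nanog PGCLCs, below the lowest detected signals of 6.90 and 6.88, so its likeness there is one of background signal. On the probe read, Fzd10 was lower in Nanog PGCLCs (-0.82 ± 0.10) and higher in cytokine PGCLCs (1.00 ± 0.10) than in mESCs (limma adjusted p = 0.000319 and 0.000112), against -1.01 and 1.03 for Mycl. Its other probes gave -0.39 and -0.55 in Nanog PGCLCs (limma adjusted p over probes = 0.0672 and 0.0166). In cytokine PGCLCs they gave 0.29 and 0.07 and were not called (limma adjusted p over probes = 0.153 and 0.735). Closest to Ccnd3 were Timm44, Hic2 and Parp2, at 0.02 to 0.03 log2 units. These distances are descriptions over 6 arrays of 3 groups and carry no test.

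**Figure D4:**
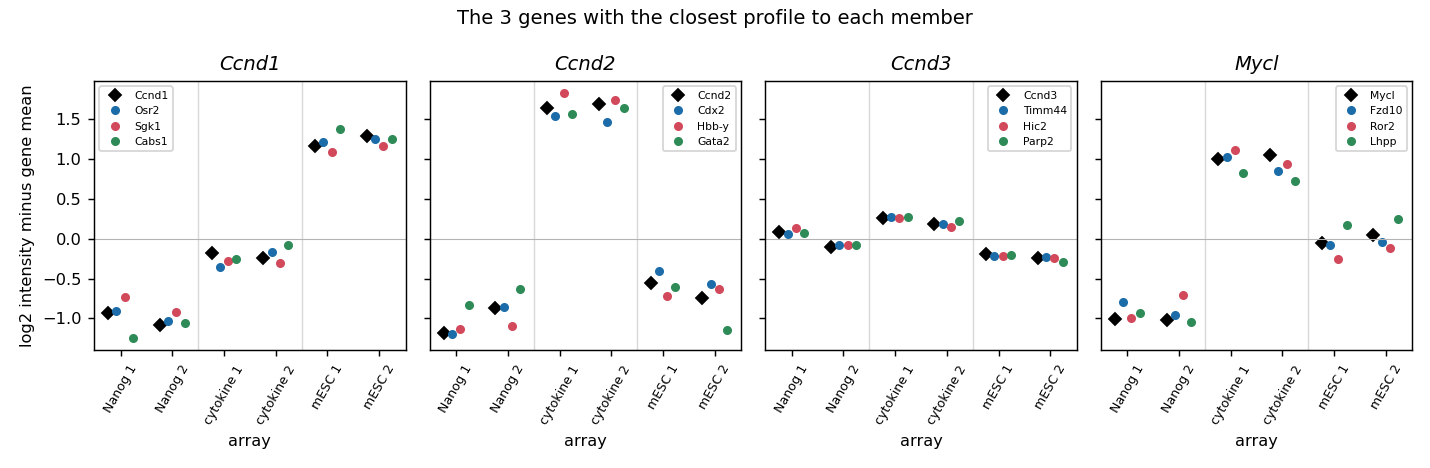
Normalized log2 intensity minus the gene's own mean on each of the 6 arrays, for each member (black diamonds) and the 3 genes with the closest profile (coloured circles). Ccnd1 is highest on the mESC arrays, and Ccnd2 and Mycl are highest on the cytokine PGCLC arrays.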

How the data were processed

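Total RNA was column purified and made into biotinylated cRNA, per the labels' protocols. The deposited intensity of each probe is the scanner's, with no sign in the values of background correction or scaling between arrays. The deposited detection p-values set a probe against its array's negative controls (936 implied by the values). The authors' value table gives log2 values of 11542 probes and looks quantile normalized, since its sorted columns differ by at most 0.000754. The submitters' processing notes name limma with no version.

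Raw intensities were background corrected here by normexp (offset 16), quantile normalized and put on a log2 scale with limma 3.58.1 in R 4.3.3. The filter kept 10673 probes detected (p below 0.01) on 2 or more arrays, and the brightest named probe on average stood for its gene. Of the 10057 probes with 1 symbol, 10050 were matched to RefSeq by Entrez identifier with 0 symbols changed, and 4 other probes had several symbols. All 6 arrays entered 1 limma model (lmFit, eBayes, 3 residual and 5.16 prior degrees of freedom). Two-sided p-values were adjusted by Benjamini-Hochberg over 6823 genes, or over 10673 probes for single probes, and called below 0.05. An exact permutation test of 2 arrays against 2 cannot go below p = 0.333 and was not used. A bound "at least N-fold" compares the mean of the brighter group with the lowest detected signal of each dim array, or with the dim probe's own value where that was higher.

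Genes named are the members, Cdk4, Rb1 and Fbxw7, up to 4 called genes of smallest adjusted p per list and comparison, and the 3 closest profiles per member. Prdm14, Esrrb, Zfp42, Kdr and Cdkn2a were named after their values were seen. The members and lists were chosen with earlier results of these data known. The model was tested on simulated data. The 17 alternatives covered background, scaling, filter, probe choice, the authors' table, variance trend, groups fitted, replicate block and each array left out.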

Additional observations from a re-analysis of the deposited data

Results flagged for a closer look

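Ccnd1 and Mycl differed between the 2 ways of making PGCLCs, by the test of Nanog against cytokine PGCLCs, which equals the difference between their effects relative to the shared mESCs. Ccnd1 was lower in Nanog than in cytokine PGCLCs by a log2 difference of -0.80. Ccnd2 was at -2.70 on the fitted scale, which is no measured fold, because Nanog PGCLCs did not detect it, and no test, because it passed the filter through the cytokine arrays alone. Mycl was at -2.04, with opposite directions against mESCs in the 2 kinds of PGCLC. Groups of 2 arrays are too small for a test of single outlying arrays.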

How the results depend on the processing

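The calls of Ccnd1 and Mycl in the 3 comparisons held under each of the 17 alternatives. Ccnd1 ranged from -2.66 to -1.87 in Nanog PGCLCs and -1.62 to -1.26 in cytokine PGCLCs against mESCs, and Mycl from -1.06 to -0.49 and 0.67 to 1.26. Requiring detection on at least 4 arrays removed Ccnd2, whose direction against the other groups is set by the filter. For Ccnd2 in Nanog PGCLCs against mESCs, where neither group detected it, the fitted -0.38 lost its call with no background correction (-0.15), median scaling (-0.24), the mean of all probes (-0.073), only the 2 groups compared (-0.38) and 4 of the 6 left-out replicates (-0.53 to -0.22 over the 6). Ccnd3 in Nanog PGCLCs against mESCs became called with no background correction (0.19), median scaling (0.27), the authors' table (0.19) and an intensity trend (0.21). Against cytokine PGCLCs it did so at -0.21, -0.21 and -0.23 with no background correction, the authors' table and the trend. Ccnd3 in cytokine PGCLCs lost its call with the mean of all probes (0.25). The cause was not tested. Genes called between the PGCLCs numbered 1539, and 634 to 1590 with a replicate left out (634 and 676 without cytokine replicates 1 and 2, 868 and 841 without Nanog replicates 1 and 2). Among genes of the lists, Dut turned to 0.14 in Nanog PGCLCs against mESCs with the mean of all probes, and Hba-x, detected in neither group, to -0.23 with the authors' table.

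Median scaling moved the median of all genes to 0.21 and 0.16 in Nanog and cytokine PGCLCs against mESCs, so the Ccnd3 value of 0.27 stands close to that shift. The share of calls that were higher became 76.5%, 72.9% and 63.2%, against 52.1%, 54.6% and 50.6%. Same-numbered replicates did not deviate together (correlations of 0.036, 0.079 and -0.0037), which cannot show whether they shared a culture, a date or a chip. With the replicate block, 3699, 3731 and 1517 genes were called in the 3 comparisons, against 3694, 3734 and 1539, and no call of a member changed. Signal over background limits Ccnd2, the dimmest Ccnd1 probe, the second Ccnd3 probe and Mycl in Nanog PGCLCs. Counts for lists moved too. In Nanog PGCLCs against mESCs, median scaling left 2 E2F targets, 0 CDK partners and 0 cyclin D turnover genes lower, so Gsk3b lost its call. With no background correction 8 E2F targets and 3 MYC cofactor genes were lower there. In cytokine PGCLCs median scaling left 2 E2F targets lower.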
